A study of Mus musculus with 14 samples.

Results

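Cycling B clone cells were the cells of an expanded B cell clone in which at least 3 of 8 cell cycle genes (Cdk1 with its cyclins Ccna2 and Ccnb2, Mki67, Top2a, Birc5, Nusap1 and Ube2c) had a UMI, and non-cycling B clone cells were those in which none did. The members were thus chosen by the measured detection of these genes. A clone cell was a barcode that carried the most frequent light chain rearrangement of its nodule (V gene, J gene and CDR3 bases), with at least 3000 UMIs and at most 10% of them from mitochondrial genes. Of 8453 such cells in 5 nodules, 3611 were cycling, 1178 were non-cycling and 3664, with 1 or 2 of the 8 genes, were intermediate. These 5 nodules held 53185 cells in all, and the 7 nodules of the series held 77442. The 8 genes set the classes, so their own levels are given as a description and were not tested.

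All nodules came from cKO mice, Eif3e fl/fl mice with Cγ1Cre and a Rosa26-YFP reporter of Cre activity. In these mice transcription of the immunoglobulin γ1 constant gene turns on Cre. The B clones came from the liver nodule of mouse 27 (12 months), the lung nodule of mouse 29 (12 months), the spleen nodule of mouse 31 (13 months), the thymus nodule of mouse 33 (16 months) and the lung and thymus nodules of mouse 34 (9 months). Per the study, the sample of mouse 27 was a secondary tumor grown in a Rag2-/- recipient, which makes no mature B or T cells of its own. T clones of the liver nodule of mouse 30 (14 months) and the spleen nodule of mouse 32 (12 months) served for comparison. There was 1 sample per mouse, so organ and mouse cannot be told apart, and no nodule from a mouse with intact Eif3e; every comparison was made between cells of the same nodule.

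Cells that divide copy their DNA in S phase with genes driven by E2F transcription factors, and then separate the copies in mitosis with genes driven by the MuvB, B-MYB and FOXM1 proteins, which bind the CHR element of promoters. In germinal centres, B cells divide and mutate their antibody genes in the dark zone, and in the light zone they test their receptors and present antigen to T cells. Genes such as Btg1, Btg2 and Klf2 are known as brakes on division in resting lymphocytes.

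The rearranged CDR3 bases that defined each clone are shown because every cell compared here carries them. In mice 29 and 34 both clones used IGKV1-135, and capitals mark the bases that differ between these CDR3s.
Mouse 27, IGKV3-12 with IGKJ4: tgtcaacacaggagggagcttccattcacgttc
Mouse 29, IGKV1-135 with IGKJ1: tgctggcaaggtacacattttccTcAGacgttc
Mouse 31, IGKV3-10 with IGKJ1: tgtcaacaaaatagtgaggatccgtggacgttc
Mouse 33, IGLV2 with IGLJ2: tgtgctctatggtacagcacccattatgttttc
Mouse 34, IGKV1-135 with IGKJ5: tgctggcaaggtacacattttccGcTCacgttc

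Promoters of the S phase and mitosis lists and of other genes were searched on both strands for the motifs named above. The stretch ran from 250 bases before to 50 bases after each start (RefSeq, GRCm38.p6). CHR was searched as TTTGAA or TTCGAA, and E2F as TTTGGCGC, TTTCCCGC, TTTGCCGC or TTTCGCGC. Matches were counted wherever they lay, also where they overlapped a match of another motif. A CHR match was present in 44 of 63 promoters of the G2 and mitosis list (69.8%), in 5 of 7 promoters of the class genes, in 19.2% of all 32851 promoters of the table and in 14.4% of the 10019 promoters of genes tested. An E2F match was present in 18 of 48 promoters of the S phase list (37.5%), in 6.35% of the mitosis list, in 2.26% of all promoters and in 4.22% of those of genes tested. Of the 55 CHR matches in the mitosis list, 43 lay in the last 100 bases of the window. The promoters of 5 genes are shown, each as the 130 bases before the start with the match in capitals, in the gene's own direction. Cdk1 is a class gene, Espl1 (separase, which cuts cohesin) and Kif15 (a spindle motor) are mitotic, and Hells (a chromatin remodeller) and Orc1 (a subunit of the origin recognition complex) are S phase genes. The stretch of Kif15 also holds 1 E2F match, TTTGGCGC on the opposite strand, left in lower case just before its CHR match.
Cdk1, chr10:69352913-69353042, minus strand, CHR: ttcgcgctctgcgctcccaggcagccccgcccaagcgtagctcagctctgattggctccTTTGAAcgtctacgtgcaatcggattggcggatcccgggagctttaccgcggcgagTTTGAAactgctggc
Espl1, chr15:102296163-102296292, plus strand, CHR: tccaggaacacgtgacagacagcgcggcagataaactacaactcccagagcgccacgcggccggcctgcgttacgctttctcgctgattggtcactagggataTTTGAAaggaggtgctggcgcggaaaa
Kif15, chr9:122950951-122951080, plus strand, CHR on the opposite strand: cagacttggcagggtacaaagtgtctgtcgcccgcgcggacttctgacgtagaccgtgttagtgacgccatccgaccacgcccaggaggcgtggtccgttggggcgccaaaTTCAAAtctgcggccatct
Hells, chr19:38930860-38930989, plus strand, E2F: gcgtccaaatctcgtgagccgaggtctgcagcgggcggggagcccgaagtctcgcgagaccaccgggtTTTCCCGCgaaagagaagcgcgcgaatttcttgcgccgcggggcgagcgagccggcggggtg
Orc1, chr4:108579324-108579453, plus strand, E2F on the opposite strand: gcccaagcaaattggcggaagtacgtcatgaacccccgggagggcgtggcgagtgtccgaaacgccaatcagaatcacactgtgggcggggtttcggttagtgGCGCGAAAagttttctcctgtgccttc

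The log2 fold changes of these genes, cycling over non-cycling, were 6.78 for Espl1, 4.90 for Kif15, 1.81 for Hells and 1.72 for Orc1.

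The 5 RNA libraries held 43039759 to 75088225 UMIs. Markers of B cells summed to 1926 to 4638 CPM (UMIs of a sum scaled to the usual common total) in non-cycling and 1540 to 3452 CPM in cycling cells, and T and NK markers to 19.3 to 111 CPM and 18.1 to 64.8 CPM. The lung clone of mouse 29 stood apart. It was the smallest, with 309 cells, its non-cycling cells carried 598 CPM of neutrophil markers against 0.885 to 1.84 CPM in the other clones, and it was the only clone with appreciable Ccnd1 (49.4 CPM in non-cycling and 53.5 CPM in cycling cells). Pairs of libraries shared 96 to 286 cell barcodes, of which at most 10 were clone cells in both.

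The share of clone cells in cycle differed between nodules. It was highest in mouse 27, at 56.6% of 1763 cells (exact 95% binomial interval 54.3 to 58.9), and in mouse 34, at 54.6% of 1410 cells (52.0 to 57.2). Mouse 33 had 42.3% of 1058 cells (39.3 to 45.3) and mouse 31 had 33.96% of 3913 cells (32.5 to 35.5). Mouse 29 was lowest, at 21.7% of 309 cells (17.2 to 26.7), and 47.9% of its clone cells were non-cycling against 7.15% to 17.7% in the other clones. The intervals of mice 27 and 34 overlapped and the other neighbours in this order did not. With cells holding at least 2 UMIs of other lineages removed, this changed: mouse 27 had 55.95% (53.3 to 58.6), above mouse 34 at 44.6% (41.0 to 48.1), whose interval overlapped that of mouse 33 (34.2 to 42.4). A cell with more UMIs has more chances to reach this fixed limit, so the removal is not independent of the classes. In mouse 34 it kept 348 of 770 cycling and 151 of 201 non-cycling cells. All these intervals cover counting error within a nodule and say nothing of the spread between nodules of the same kind, of which there was 1 each. With every cell thinned to 3000 UMIs the shares were 37.5%, 10.7%, 15.5%, 22.02% and 38.2% in mice 27, 29, 31, 33 and 34. The level of the share thus changed with depth, and its order did not, apart from mice 27 and 34.

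**Figure D1:**
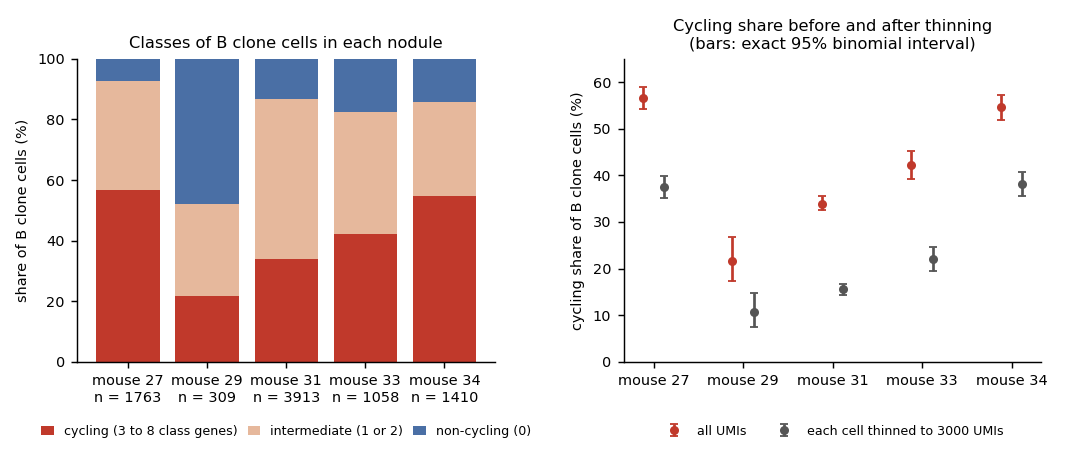
Left, share of B clone cells (y axis, %) that were cycling, intermediate or non-cycling in each of 5 nodules; right, the cycling share (y axis, %) from all UMIs and with each cell thinned to 3000 UMIs, with exact 95% binomial intervals. Mice 27 and 34 lay at 56.6% and 54.6%, and mouse 29 at 21.7%, before thinning.

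Cells near the limits of the classes were numerous. Exactly 3 class genes were found in 166, 10, 433, 88 and 124 cells of mice 27, 29, 31, 33 and 34, and exactly 2, just outside, in 292, 23, 914, 151 and 179 cells. At the other limit, 1 class gene was found in 347, 71, 1154, 273 and 260 cells. Median UMIs were 9513.5 in cells with 3 class genes and 8691 in cells with 2 in mouse 27, and 12768 against 11248.5 in mouse 31. In cycling cells Mki67 ranged from 433 to 938 CPM over the 5 nodules, Top2a from 356 to 593 CPM and Cdk1 from 31.2 to 78.6 CPM. All 3 are 0 in non-cycling cells by definition.

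Levels of cell cycle genes that the rule did not use followed the number of class genes. Summed over the S phase list, the mean of the 5 nodules was 1349 ± 379 CPM (SD, n = 5) in cells without a class gene, 2471 CPM in cells with 2, 3496 CPM with 3 and 5584 CPM with 6, and it was 3762 CPM in cells with all 8. The G2 and mitosis list had 1400 CPM at 0, 2359 CPM at 3 and 9372 CPM at 8 class genes. Mcm2, a subunit of the replicative helicase, had 22.7 CPM at 0, 58.9 CPM at 4 and 28.5 CPM at 8, whereas Plk1, a mitotic kinase, had 0.863 CPM at 0 and 96.9 CPM at 8. The level of the S phase list thus peaked in cells with 6 class genes, within the cycling class, and that of the mitosis list with all 8.

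**Figure D2:**
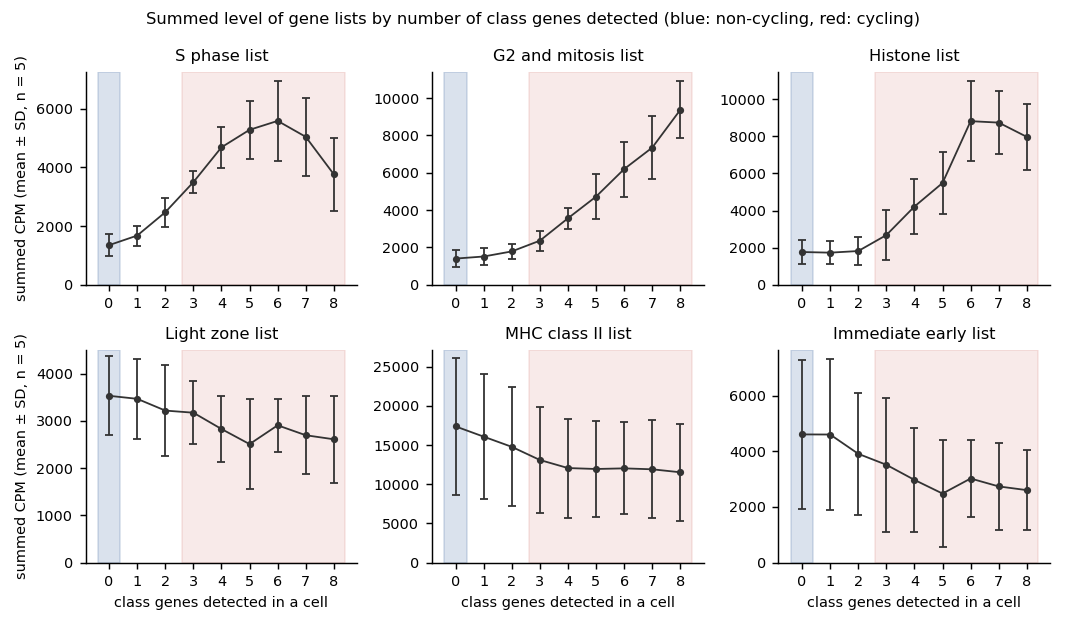
Summed CPM of 6 gene lists (y axes; mean ± SD of 5 nodules) against the number of class genes detected in a cell (x axes), with non-cycling cells shaded blue and cycling cells red. The S phase list peaks at 6 class genes (5584 CPM), the mitosis list at 8 (9372 CPM), and the light zone, MHC class II and immediate early lists have their highest mean at 0.

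Cycling cells of the 5 clones also differed in their balance of S phase and mitosis. After thinning to 3000 UMIs, cycling cells of mice 27 and 34 had a median of 22 UMIs from the mitosis list and 11 and 9 from the S phase list, and 69.8% and 71.0% of them had more mitosis than S phase UMIs. In mouse 31 the medians were 16 for S phase and 13 for mitosis, and 58.9% of cycling cells had more S phase UMIs. Mouse 29 (13 and 14) and mouse 33 (10 and 12) lay between. The clones with the highest share in cycle were those whose cycling cells held more mitotic UMIs, a description over 5 nodules. Since the level of the mitosis list rose with the number of class genes, this relation is not independent of the rule and was not tested. Non-cycling cells had medians of 2 to 5 for S phase and 3 to 6 for mitosis.

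Cycling cells had more RNA molecules counted. The median UMIs per cell of mice 27, 29, 31, 33 and 34 were 6712, 10414, 8146, 10729 and 7666 in non-cycling and 10813, 15972, 15546, 18294 and 13787 in cycling cells, and every cycling median lay above every non-cycling median. The ratio was 1.71-fold (log2 0.77 ± 0.12, SD, n = 5) and above 1 in 5 of 5 nodules. A cell with more UMIs also has more chances to show a class gene, so this ratio is not independent of the rule and was not tested. Gene lists below are therefore also counted in cells matched on UMIs, equal numbers of both classes within each nodule and each step of 0.05 in log10 UMIs. This gave 122, 39, 348, 153 and 162 cells of each class in the 5 nodules, in the same order.

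No readout of RNA quality or of the receptor library separated the classes in the same direction in all 5 nodules once depth was equal. The mitochondrial share was lower in cycling cells in 5 of 5 nodules, by 0.159 ± 0.0797 percentage points (a difference of -0.159, SD, n = 5; exact two-sided sign-flip p = 0.0625, the smallest that 5 nodules allow, so no readout of this kind could pass 0.05). In matched cells it was lower in 3 of 5, with a mean difference of -0.0190 points (exact p = 0.625). Genes per cell at 3000 UMIs were higher in cycling cells in 4 of 5 nodules, at 1446 ± 85.2 against 1410 ± 107 genes (exact p = 0.1875). Light chain contig UMIs, a count of receptor transcripts from the separate V(D)J library, were 1.23-fold higher (log2 0.30 ± 0.29, higher in 4 of 5, exact p = 0.125) and in matched cells did not separate the classes (log2 0.01 ± 0.20, exact p = 0.875). A heavy chain contig was found in 4.77 ± 5.18 percentage points more of the cycling cells (higher in 5 of 5, exact p = 0.0625). In matched cells the sign turned, to -5.16 ± 6.16 points (lower in 4 of 5, exact p = 0.125).

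**Figure D3:**
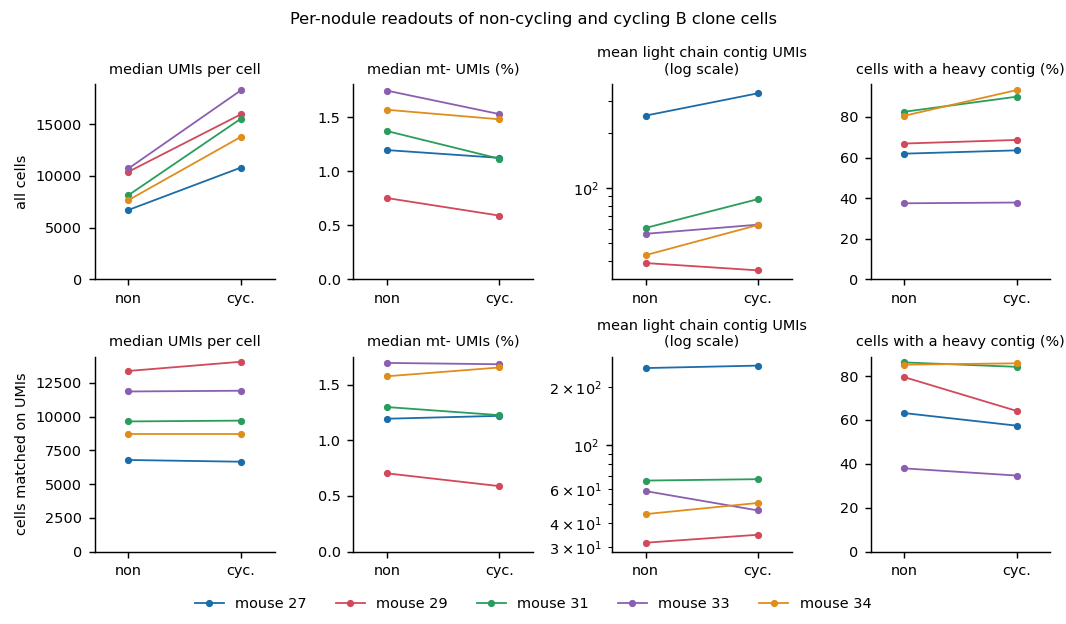
Median UMIs per cell, median mitochondrial share (%), mean light chain contig UMIs per cell (log scale) and share of cells with a heavy chain contig (%) in non-cycling and cycling cells, joined within each of 5 nodules, for all cells (top) and cells matched on UMIs (bottom). UMIs per cell rise in every nodule at the top (1.71-fold) and the remaining lines lie close to level at the bottom, apart from the heavy chain contigs of mouse 29.

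The cycling share was also read by heavy chain. Mice 27 and 34 each had a pair of related heavy chain CDR3s, shown with the bases that differ in capitals.
Mouse 27, IGHV1-75, most frequent: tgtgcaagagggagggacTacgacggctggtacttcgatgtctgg
Mouse 27, IGHV1-75, next: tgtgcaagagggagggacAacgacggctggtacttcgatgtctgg
Mouse 34, IGHV9-1, most frequent: tgtactagagaGgAtgActattgg
Mouse 34, IGHV9-1, next: tgtactagagaAgTtgCctattgg

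Each cell was placed by its heavy chain contig with the most UMIs. In mouse 34, 60.3% of 966 cells with the most frequent heavy chain were cycling (exact 95% interval 57.1 to 63.4) against 45.5% of 213 cells with the next (38.7 to 52.5). These intervals did not overlap. The contigs did not part the cells cleanly: 295 cells of mouse 34 held contigs of both heavy chains, and 63.7% of these were cycling (57.96 to 69.2). No doublet caller was run, so whether the groups are subclones was not tested. Of cells with a contig of the first and none of the next, 58.8% of 738 were cycling (55.2 to 62.4), and of those with the reverse, 39.9% of 153 (32.05 to 48.1). In mouse 27 no cell held both, and the shares were 57.1% of 778 cells and 51.2% of 348 cells, with overlapping intervals (53.5 to 60.6 and 45.8 to 56.5). In mouse 33, 42.5% of 261 and 34.04% of 94 cells were cycling (36.5 to 48.8 and 24.6 to 44.5). Cells of 1 nodule are not replicates, so these shares were not tested. They were also not matched on UMIs, and a cell with more UMIs has more chances to show a class gene.

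Eif3e, the gene targeted in these mice, had 245, 238, 166, 206 and 217 CPM in non-cycling cells of mice 27, 29, 31, 33 and 34, and 227, 237, 165, 222 and 183 CPM in cycling cells. The classes overlapped, and the log2 difference was -0.06 ± 0.08 (SE; edgeR adjusted p = 0.595). The files give a single count per gene and no exon, so this count does not check the deletion. Per the study, tumor B and CD4+ T cells of cKO mice were YFP negative and had normal eIF3e protein. The study proposes that lymphocytes with intact Eif3e became malignant.

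Over all genes, 9937 were tested by edgeR on UMIs summed per nodule and class with the nodule as a block, leaving out the 8 class genes. Of these, 1487 (15.0%) were higher and 1632 (16.4%) lower in cycling cells at an adjusted p of at most 0.05, and the median log2 difference of all genes was -0.07. In matched cells 824 were higher and 832 lower, of 8401 tested, and 805 of the 1487 and 724 of the 1632 were among them. Counts of gene lists below, in all and in matched cells, are to be read beside these shares. A count near them says nothing particular of its list. Differences past 2-fold were mostly rises, with 430 genes higher and 83 lower, and 170 of the 430 were in the lists of S phase, S phase entry, mitosis, DNA repair or histone genes. Intermediate cells had a mean between the classes for 1354 of the 1487 and 1393 of the 1632 genes. The rule places these cells between the classes, and the genes were picked because the classes differed. The count was not made over all genes tested, so it supports nothing beyond the classes. The ranges of both classes over the 5 nodules did not overlap for 375 of the higher and 24 of the lower genes, and for 407 of all tested. CPM is a share of all UMIs, not UMIs per cell: since cycling cells had log2 0.77 more UMIs, a gene lower by less than that in CPM had, on this average, no fewer UMIs per cycling cell. Without the lung clone of mouse 29, 1521 genes were higher and 1289 lower.

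S phase genes were higher almost throughout, as a restatement of the classes that supports nothing beyond them. Of 50 genes, 49 were called higher, with a median log2 of 1.79 (matched 1.70, 47 of 50). Rrm2, a subunit of ribonucleotide reductase, had 2.23, 2.57, 7.52, 4.39 and 4.30 CPM in non-cycling and 83.6, 121, 261, 180 and 118 CPM in cycling cells of mice 27, 29, 31, 33 and 34 (log2 5.11). Pcna, the sliding clamp of DNA polymerase, had 95.9, 82.8, 93.1, 54.2 and 92.8 CPM against 296, 337, 370, 207 and 228 CPM (log2 1.77). The classes overlapped for neither gene. Mcm2 rose less, from 36.8, 13.5, 25.0, 10.7 and 27.6 CPM to 58.6, 62.4, 52.7, 28.9 and 34.5 CPM (log2 1.03), and its classes overlapped.

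Genes that control entry into S phase moved unequally. Of 19 tested, 13 were higher and 1 lower, with a median log2 of 0.86 (matched 0.78, 11 of 18 higher). The E type cyclins Ccne1 (log2 2.56) and Ccne2 (2.44), which activate Cdk2, the activator E2f1 (2.06) and the repressor E2f8 (3.70), itself an E2F target, were higher. The D type cyclins, which link growth signals to Cdk4 and Cdk6, were not higher, and Ccnd1 did not pass the filter. Ccnd3 had 100, 84.1, 86.9, 51.3 and 139 CPM in non-cycling and 98.4, 66.8, 97.1, 51.4 and 111 CPM in cycling cells (log2 -0.10 ± 0.10 SE, edgeR adjusted p = 0.444). Ccnd2 was the gene called lower (log2 -0.41 ± 0.15, edgeR adjusted p = 0.0493), with 196 and 138 CPM in mouse 33, 19.04 and 16.6 CPM in mouse 34 and at most 5.35 CPM in the other clones. Its call was lost in 9 of 15 alternatives, including leaving out mouse 27, 29, 33 or 34.

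Mitotic genes had the largest differences of any list, again by the nature of the classes. Of 67 tested, 64 were called higher, with a median log2 of 3.07 (matched 2.95, 59 of 62). Cenpf, a kinetochore protein, rose by log2 5.61, Bub1, a kinase of the spindle checkpoint, by 5.45, Plk1 by 5.47, and Cdca8 and Aurkb of the chromosomal passenger complex by 4.56 and 3.97. The list median was between 3.01 and 3.66 in each nodule, whereas that of the S phase list ran from 1.25 in mouse 27 and 1.48 in mouse 34 to 2.40 in mouse 29.

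Most histone, DNA repair and chromatin genes were higher too. Of 50 replication-dependent histone genes, 44 were higher, with a median log2 of 1.87 (matched 2.13, 29 of 32). Hist1h2ap had 109, 111, 55.3, 36.6 and 111 CPM in non-cycling and 1136, 641, 610, 549 and 1156 CPM in cycling cells (log2 3.31), with no overlap. Reads of near-identical histone genes may be split between copies, so single histone values are uncertain. Of 31 genes of DNA repair and antibody diversification, 23 were higher and 2 lower (matched 16 and 1 of 29), among the higher Bard1 (log2 3.55), which acts in homologous recombination. Of 30 genes of chromatin and DNA methylation, 22 were higher and 3 lower (matched 21 and 2 of 29). Uhrf1, which directs maintenance methylation, rose by log2 2.50 and H2afz, a variant histone, by 2.10.

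Ezh2, the methyltransferase of Polycomb repressive complex 2 and a hallmark of dividing germinal centre B cells, had 345, 136, 113, 210 and 376 CPM in non-cycling and 482, 365, 397, 379 and 537 CPM in cycling cells. It was higher in every nodule, most in mouse 31, and the ranges overlapped only because cycling cells of mouse 29 lay below non-cycling cells of mouse 34 (log2 1.00 ± 0.14 SE, edgeR adjusted p = 5.48e-05; matched cells 0.98). Its paralog Ezh1 was among the lower genes (-0.46 ± 0.14), a call lost in 8 of 17 alternatives. Tet2, which oxidises methylcytosine, was lower (-0.88 ± 0.14; matched -0.90). Kdm5b, a demethylase of histone H3 lysine 4, had 36.8, 58.4, 146, 55.2 and 35.0 CPM in non-cycling and 9.12, 20.5, 79.6, 24.0 and 8.45 CPM in cycling cells. It fell in each nodule, with mouse 31 highest in both classes (log2 -1.39 ± 0.15, edgeR adjusted p = 2.09e-06; matched -1.36).

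**Figure D4:**
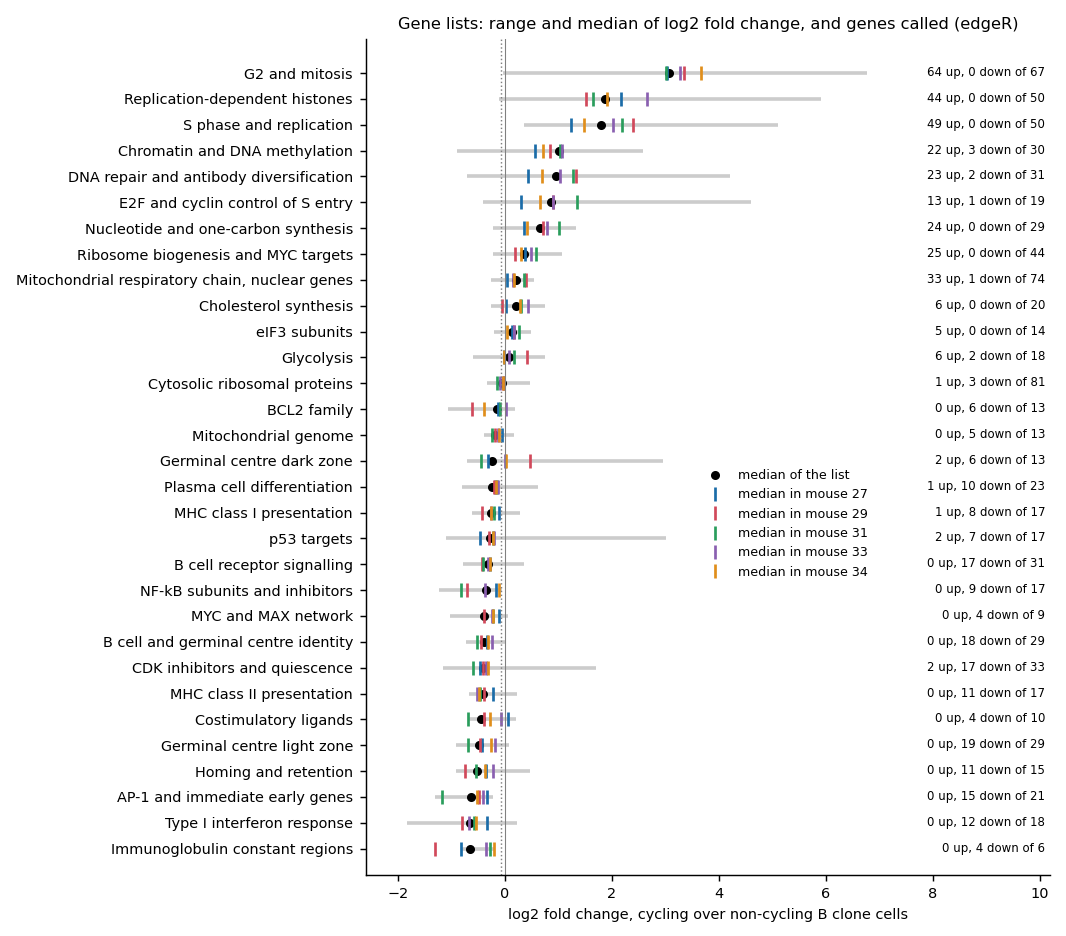
Log2 fold change, cycling over non-cycling B clone cells (x axis), for 31 gene lists: grey bar, range of the genes; black dot, median of the edgeR estimates; coloured ticks, median in each nodule; dotted line, median of all genes; right, genes called at an adjusted p of at most 0.05. The mitosis list has the highest median (3.07), and the immunoglobulin constant (-0.65), interferon (-0.64) and immediate early lists (-0.63) the lowest.

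Several genes known as brakes on division were lower in cycling cells, whereas of the CDK inhibitors Cdkn2d was higher and Cdkn1a, Cdkn1b, Cdkn2a and Cdkn2c were not called. Of 33 genes of the quiescence list, 17 were lower and 2 higher, with a median log2 of -0.41 (-0.38 in matched cells, 15 lower of 32). Btg2, an antiproliferative partner of mRNA deadenylases, had 115, 861, 299, 229 and 315 CPM in non-cycling and 66.4, 508, 106, 110 and 203 CPM in cycling cells. It fell in every nodule, with mouse 29 above the rest in both classes (log2 -0.98 ± 0.12 SE, edgeR adjusted p = 1.20e-05; matched -0.83). Klf2, a transcription factor of resting lymphocytes, had 218, 185, 1175, 269 and 452 CPM against 116, 85.6, 636, 179 and 250 CPM. It too fell in each nodule, and the spread between clones exceeded the difference within them (log2 -0.86 ± 0.08 SE, edgeR adjusted p = 6.45e-07; matched -0.45).

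Foxo1, which drives quiescence genes and is also required for the dark zone, had 185, 244, 163, 80.5 and 162 CPM in non-cycling and 149, 89.1, 99.9, 60.9 and 119 CPM in cycling cells (log2 -0.65 ± 0.13 SE, edgeR adjusted p = 0.000965; matched -0.59). Others that fell were Btg1 (log2 -0.87), Pik3ip1, an inhibitor of PI3 kinase (-1.17), and Ypel3 (-1.16). The 2 higher genes were Rbl1, the pocket protein p107 and an E2F target (1.71), and Cdkn2d, which encodes p19Ink4d (1.00). Cdkn1a (0.14 ± 0.19, edgeR adjusted p = 0.592), Cdkn1b (-0.11 ± 0.13, 0.542), Cdkn2a (0.10 ± 0.14, 0.630) and Cdkn2c (0.30 ± 0.24, 0.378) did not pass the test, and each changed sign in at least 1 alternative.

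Tcp11l2 and Mxd4 were the only falls named here that held in every alternative run. Tcp11l2 had 50.2, 60.3, 40.0, 53.7 and 65.7 CPM in non-cycling and 15.3, 17.8, 10.7, 19.1 and 30.3 CPM in cycling cells. The classes did not overlap, and the call held in 17 of 17 alternatives (log2 -1.59 ± 0.14 SE, edgeR adjusted p = 1.33e-07). Mxd4, a MAX partner that opposes MYC, was also lower (-1.03 ± 0.11; 17 of 17). Other falls among the largest outside the cell cycle lists were Ifit1 (-1.68), Frmd5 (-1.57), Il4i1, a secreted amino acid oxidase (-1.26), Fcmr, a receptor for IgM (-1.18), and Pld4 (-1.12).

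Myc itself did not separate the classes. It had 148, 497, 179, 117 and 67.6 CPM in non-cycling and 164, 399, 172, 160 and 79.9 CPM in cycling cells, higher in 3 nodules and lower in 2 (log2 0.07 ± 0.10 SE, edgeR adjusted p = 0.658). Its estimate changed sign in 4 alternatives, among them leaving out mouse 33 and matched cells (-0.18). Of 9 genes of the MYC and MAX network, 4 were lower and none higher (matched 4 of 9).

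**Figure D5:**
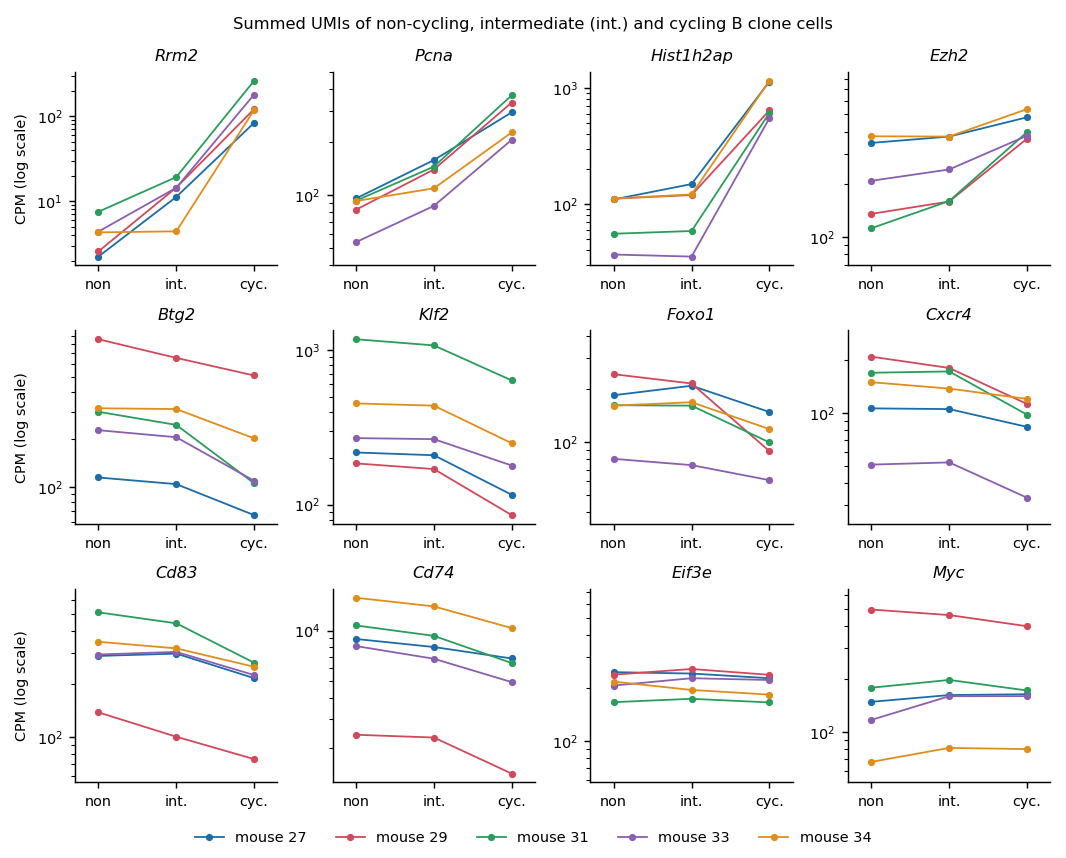
CPM (log scale) of 12 genes in non-cycling (non), intermediate (int.) and cycling (cyc.) B clone cells, with lines joining the sums of each of 5 nodules. Rrm2, Pcna, Hist1h2ap and Ezh2 rise in every nodule, Btg2, Klf2, Foxo1, Cxcr4, Cd83 and Cd74 are lower in cycling than in non-cycling cells of every nodule, and Eif3e and Myc stay near level.

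Many genes of the light zone and of antigen presentation were lower in cycling cells. Of 29 light zone genes, 19 were lower and none higher, with a median log2 of -0.49 (matched cells -0.39, 12 of 27). Cd83, a marker of light zone cells that holds MHC class II at the surface, had 289, 138, 511, 294 and 348 CPM in non-cycling and 216, 74.9, 264, 225 and 251 CPM in cycling cells. It fell in every nodule, most in mouse 31, and the ranges overlapped (log2 -0.62 ± 0.10 SE, edgeR adjusted p = 0.000255; matched -0.44). Cd86, a ligand of CD28, fell by 0.66 on the log2 scale and Cd40 by 0.51, the latter call being lost in matched cells. Cd80, the other CD28 ligand, had 72.5, 51.4, 80.3, 97.1 and 12.9 CPM against 78.0, 16.9, 51.5, 95.5 and 12.0 CPM and was not called (-0.38 ± 0.16, edgeR adjusted p = 0.0846; matched -0.50). It was called lower in 3 of 17 alternatives, at -0.70 with the most frequent heavy chain, -0.52 without mouse 27 and -0.48 with thinned cells.

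Of 17 genes of MHC class II presentation, 11 were lower and none higher (median log2 -0.41; matched -0.31, 7 of 16). Cd74, the invariant chain, had 8919, 2410, 10730, 8095 and 15660 CPM in non-cycling and 6833, 1417, 6418, 4947 and 10350 CPM in cycling cells. It fell in each nodule, with mouse 29 far below the other clones in both classes (log2 -0.65 ± 0.07 SE, edgeR adjusted p = 4.85e-06; matched -0.47). H2-Aa, the α chain of I-A, and H2-Eb1, the β chain of I-E, fell by 0.55 and 0.52. H2-Ab1 was called at -0.31, but not without mouse 31, 33 or 34. Of 17 class I genes, 8 were lower and 1, the immunoproteasome subunit Psmb9, higher (median log2 -0.25). In matched cells only 2 were lower, beside 832 of 8401 over all genes.

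Dark zone genes were called lower more often than higher in all cells, and their median changed sign in matched cells. Of 13 tested, 2 (15.38%) were higher, near the 15.0% of all genes, and 6 (46.15%) lower, beside 16.4% of all genes. In matched cells 2 were higher and 3 lower. The list median was -0.23 in all cells and 0.09 in matched cells. Cxcr4, the chemokine receptor of dark zone cells, had 106, 209, 169, 50.8 and 149 CPM against 83.2, 112, 97.6, 32.9 and 120 CPM and fell in every nodule (-0.61 ± 0.11, edgeR adjusted p = 0.000427; matched -0.52). Polh, an error-prone polymerase of somatic hypermutation, was higher (0.67 ± 0.15), a call lost when cells with UMIs of other lineages were removed.

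Many genes of B cell identity and receptor signalling were lower. Of 29 identity genes, 18 were lower and none higher (median log2 -0.39; matched -0.25, 9 of 28), and of 31 receptor signalling genes, 17 were lower and none higher (-0.32; matched -0.28, 12 of 28). Cd79a, which carries the receptor signal, had 1448, 856, 1008, 388 and 1390 CPM in non-cycling and 883, 578, 538, 212 and 1032 CPM in cycling cells. It fell in each nodule (log2 -0.70 ± 0.09 SE, edgeR adjusted p = 1.34e-05; matched -0.49). Cd79b fell by 0.62, the inhibitory adaptor Dok3 by 0.79, and the kinases Lyn and Blk by 0.55 and 0.77, that of Blk being lost in matched cells. Bcl6, the repressor that defines germinal centre B cells, was lower by 0.48 on the log2 scale in all cells and was not called in matched cells (-0.25).

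Several antibody and plasma cell genes were lower. Of 6 immunoglobulin constant genes, 4 were lower (matched 3), namely Igha (log2 -0.68), Iglc1 (-0.80), Iglc2 (-0.82) and Iglc3 (-0.61). The 3 Iglc genes are near-identical and their reads may be shared. Only the clone of mouse 33 was defined by an IGL light chain, and the others by an IGK chain. In those others, Iglc is not the constant gene of the defining light chain. In mice 29 and 31 no clone cell was placed by a heavy chain contig with IGHA. The source of such UMIs was not tested. The Igha call was lost without mouse 27, without mouse 33 and in matched cells. Ighe, the ε constant gene, had 499, 275, 213, 127 and 101 CPM in non-cycling and 404, 109, 203, 128 and 125 CPM in cycling cells and was not called (-0.25 ± 0.15, edgeR adjusted p = 0.197). Of 23 plasma cell genes, 10 were lower and 1 higher (matched 7 and none). Mzb1, a chaperone of antibody secretion, fell by 0.62, and Irf4 by 0.49, a call lost without mouse 31. Prdm1, the master regulator of plasma cells, was not called (-0.35 ± 0.16, edgeR adjusted p = 0.111).

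Inducible genes were among the lower lists. Of 21 AP-1 and immediate early genes, 15 were lower and none higher (median log2 -0.63; matched -0.59, 11 of 18). Jun had 331, 933, 1431, 476 and 1514 CPM in non-cycling and 235, 531, 716, 407 and 817 CPM in cycling cells (-0.70 ± 0.10 SE, edgeR adjusted p = 7.29e-05), and Egr1 fell by 0.84. Of 18 type I interferon response genes, 12 were lower (median -0.64; matched -0.40, 5 of 15). Ifit1 had 5.58, 15.4, 183, 11.7 and 52.2 CPM against 1.53, 4.46, 76.1, 2.57 and 13.1 CPM, highest in mouse 31 in both classes. Of 17 NF-kB genes, 9 were lower (matched 7 of 16), among them Rel (-0.48) and Nfkbie (-0.70). Of 15 homing genes, 11 were lower (matched 8 of 13), among them S1pr1, the receptor for exit from lymphoid tissue (-0.84; matched -1.01).

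Survival and p53 genes included falls on both sides of cell death. Mcl1, which blocks apoptosis, fell by 0.47 on the log2 scale, and Bcl2l11 (BIM) and Bbc3 (PUMA), which promote it, by 0.83 and 0.70. The Bbc3 call was lost without mouse 31 and in matched cells. Of 13 BCL2 family genes, 6 were lower and none higher (matched 4 of 12), and of 17 p53 targets, 7 were lower and 2 higher (matched 7 and 1 of 16). Trp53inp1 fell from 99.3, 50.1, 124, 40.5 and 69.4 CPM to 51.7, 16.04, 55.5, 17.04 and 41.4 CPM (-1.10 ± 0.12 SE, edgeR adjusted p = 2.18e-06; matched -0.72). Gtse1, a mitotic regulator of p53 and on the same list, rose by 3.01.

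Genes of growth and metabolism were higher in part, with fewer calls in matched cells. Of 29 genes of nucleotide and one-carbon synthesis, 24 were higher and none lower (median log2 0.65; matched 0.39, 13 of 28). Dctpp1 (log2 1.33) and Dtymk (1.13), which control pyrimidine nucleotide pools, and Paics (0.84), of purine synthesis, led by adjusted p. Of 44 genes of ribosome biogenesis and MYC targets, 25 were higher (median 0.36), against 8 of 43 in matched cells (0.14). Ncl, which encodes nucleolin, had 1409, 2153, 700, 768 and 823 CPM in non-cycling and 2204, 3169, 1276, 1415 and 1183 CPM in cycling cells (0.69 ± 0.07 SE, edgeR adjusted p = 1.26e-06; matched 0.38). Ran, which also acts in spindle assembly, rose by 1.06 (matched 0.86).

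Of 74 nuclear genes of the respiratory chain, 33 were higher and 1 lower (median log2 0.22), against 7 higher in matched cells (0.12). Over all genes in matched cells, 824 of 8401 were higher and 832 lower. Of 13 genes of the mitochondrial genome, 5 were lower (median -0.18), against none in matched cells (-0.05). Of 20 cholesterol synthesis genes, 6 were higher, among them Idi1 (0.76), and 2 of 18 in matched cells. Of 18 glycolysis genes, 6 were higher and 2 lower, and in matched cells none were higher and the list median changed sign, from 0.07 to -0.08. Cytosolic ribosomal proteins stayed near the median of all genes, with 1 higher and 3 lower of 81 (matched none and 5).

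Among the eIF3 subunits, the complex to which the targeted gene belongs, 5 of 14 were called higher and none lower (median log2 0.14), with Eif3a at 0.36, Eif3b at 0.36 and Eif3l at 0.31. In matched cells none of the 14 was called and the median was 0.03.

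RNA of other cell types did not move in a single direction with the classes. T and NK markers in the 5 nodules summed to 29, 19.3, 111, 51.3 and 92.1 CPM in non-cycling and 18.1, 21.4, 64.8, 44.4 and 56.7 CPM in cycling cells, lower in 4 of 5 nodules, with 2 to 6 of the 11 markers at 0 in non-cycling cells. Macrophage and monocyte markers summed to 37.9, 187, 56.9, 46.9 and 34.4 CPM against 130, 248, 67.8, 55.3 and 56.2 CPM, higher in 5 of 5, and Lyz2 was called higher (log2 0.78), though not in matched cells (0.27). With every clone cell holding at least 2 UMIs of other lineages removed, 963 genes were higher and 1594 lower, and 66 of the 309 cells of mouse 29 were left.

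The classes differed in part between B and T clones. Of T clone cells, 9.63% of 405 in mouse 30 and 9.34% of 3233 in mouse 32 were cycling, and 1558 and 1521 further clone barcodes lay under the UMI minimum. Their non-cycling cells had fewer UMIs, with medians of 3980.5 and 4398.5 against 6712 to 10729 in B clones. At 5000 UMIs the T shares were 20.83% and 17.3%, beside 21.97% to 58.95% in B clones, mouse 29 being lowest. Thinned to 3000 UMIs they were 8.395% and 4.702%, beside 10.68% in mouse 29. The shares of B and T clones are thus not compared at equal depth by the main rule. Of 13082 genes tested for an interaction (edgeR), 537 (4.1%) differed, 363 with a higher and 174 with a lower cycling effect in T clones. The T side rested on few or mixed cells. Cycling cells of mouse 32 carried 6002 CPM of erythroid and 7224 CPM of neutrophil markers against 228 and 1382 CPM in non-cycling cells, with T and NK markers at 597 against 2025 CPM, and mouse 30 had 39 cycling cells. Without mouse 32, 66 genes were called and without mouse 30, 2938. With cells holding UMIs of other lineages removed, 19 genes were called, and mouse 32 kept 2 cycling cells.

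Ccnd3 was among the genes that differed. It had 562 and 601 CPM in non-cycling T clone cells of mice 30 and 32 and 195 and 213 CPM in cycling ones, whereas in B clones the classes overlapped. The effect in T clones minus that in B clones was log2 -1.47 ± 0.21 (SE, edgeR adjusted p = 0.000943). It held in 11 of 13 alternatives, matched cells (-1.12) and each nodule left out included, but not without the nodule block or with cells holding other-lineage UMIs removed (-1.07, edgeR adjusted p = 0.216). Btg2 also fell in T clones, from 255 and 842 CPM to 131 and 289 CPM, and its interaction was not called (-0.42 ± 0.26, edgeR adjusted p = 0.409). Of 29 light zone genes, none had a called effect that was higher in T clones and 1 had a lower effect, beside 4.1% of all genes in either direction. Other B cell lists had more calls. The higher and lower effects in T clones were 6 and 3 of 29 identity genes, 5 and 1 of 31 receptor signalling genes and 2 and 1 of 17 MHC class II genes. The limits of the T side given above hold for these counts too.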

How the data were processed

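Nodules were dissociated, dead cells were removed, and single-cell RNA and V(D)J libraries were made with SeekOne DD kits. The labels name a 5′ kit for the V(D)J libraries, and the study's methods a 3′ kit for RNA; which kit gave these RNA matrices, whose barcodes match the V(D)J tables, was not settled. The authors deposited, per sample, a matrix of UMI counts per gene and cell (32285 genes) and a table of receptor contigs with their UMI counts. GRCm38 and mm10 are named in the submitters' processing notes. The aligner and annotation of the matrices are not given in the sources used here. Coordinates and promoters are from RefSeq (GRCm38.p6), and 57 of 68 mitosis and 40 of 50 S phase genes had a promoter there.

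Clone cells were taken as described above, with T clones defined by the most frequent β chain rearrangement. UMIs were summed per nodule and class, and edgeR 4.0.16 (R 4.3.3) fitted quasi-likelihood models with TMM factors, filterByExpr by class and the nodule as a block. P-values were adjusted by Benjamini-Hochberg over all genes tested, and genes were called at 0.05. Sums of the same nodule deviated together (r = 0.798 to 0.913 across genes, at most -0.00893 with another nodule), and the pairing comes from the shared mouse. The p-values rest on how the difference within a nodule varied over the 5 nodules, which came from liver, lung, spleen and thymus. Readouts were tested by exact sign-flip over nodules. Intervals are exact (Clopper-Pearson, scipy 1.17.1) and cover counting error only.

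No doublet caller was run. An alternative removed clone cells with at least 2 UMIs over markers of other lineages, added after seeing the data for the T comparison. Other alternatives were DESeq2 1.42.0 (genes whose adjusted p is NA left as NA), RLE factors, TMM factors from genes outside the cell cycle lists, no low-count filter, no block, each nodule left out, cells matched on or thinned to equal UMIs, 5000 UMIs or 5 class genes as the minimum, 5% as the mitochondrial limit, and the most frequent heavy chain. The scripts were tested on simulated counts. The members, lists and tests were chosen with earlier results of these data known. Genes were named by a rule: the 10 largest rises and falls among genes called in the same direction in all nodules, with a mean of at least 20 CPM in a class and outside the lists of S phase, mitosis, repair and histone genes, up to 3 genes per list and direction by adjusted p, and a fixed set, of which some are not reported here. Espl1, Kif15, Hells and Orc1 were named for their promoters.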

Additional observations from a re-analysis of the deposited data

Results flagged for a closer look

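Of 187 groups of 5 per-nodule values checked, 8 held a nodule far from the other 4, and chance alone flags about 1 in 20. In the spleen clone of mouse 31, the immediate early list had a median log2 of -1.18 against -0.52 to -0.34 elsewhere, Cd79b was at -0.85, Cdkn2c at 2.37 from 0.664 to 3.98 CPM, and Sdf2l1, a chaperone of the endoplasmic reticulum, at 1.60. In the lung clone of mouse 29, the clone with the fewest cycling cells, Hmgb2 was at 3.29, and Irf7 at -3.23 and Mir22hg at -4.05, where neither had a UMI in the cycling cells. Plk1 stood at 6.98 in mouse 33, whose non-cycling cells had none. Ratios against a sum of 0 depend on the 0.5 UMIs added to each sum.

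The cycling effect of 8 named genes differed between T and B clones by the edgeR interaction test. The differences, T minus B on the log2 scale, were -1.47 for Ccnd3, -1.64 for Ccne1, -2.37 for Fbxo5, 2.996 for Dok3, 0.91 for Foxp1, 1.90 for H2-Aa, 2.88 for Ifit2 and 1.25 for Uhrf1. In matched cells only Ccnd3 kept its direction and its call, and H2-Aa was called with the opposite sign. In mouse 32, Dok3, an adaptor of B and myeloid cells, had 1.79 CPM in non-cycling and 10.3 CPM in cycling T clone cells, beside the rise in neutrophil markers given above; the part of those markers in this result was not tested.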

How the results depend on the processing

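Counts of genes higher and lower in cycling cells, 1487 and 1632 of 3119 called, kept within 1.5 times with RLE factors, TMM factors from genes outside the cell cycle lists, DESeq2, 5000 UMIs, 5 class genes and the 5% mitochondrial limit. No main call was called in the opposite direction in any alternative. Without the replicate block 288 genes were called, 285 higher and 3 lower, so nearly all falls rest on the comparison within nodules. Without the low-count filter 977 were lower. Matched cells gave 1656 (824 and 832), from fewer cells. Thinned cells gave 2049 (911 higher), removal of other lineages 963 higher, and the most frequent heavy chain 1057 lower. Leaving out each nodule gave 1006 to 1441 lower, with 1006 without mouse 31 and 1033 without mouse 33. Unless stated, the cause was not tested.

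The T minus B interaction (537, with 363 and 174) was the least stable. It gave 1199 (675 lower) without the filter, 0 without the replicate block (0 higher and 0 lower, with 209 at an unadjusted p under 0.05 in edgeR, against 363 by DESeq2 with the block), 103 lower with DESeq2, 131 (79 and 52) in matched cells and 19 (4 and 15) with other lineages removed. Leaving out a nodule gave 66 to 2938 in all, 55 to 1464 higher and 11 to 1474 lower. H2-Aa turned to -2.68 in matched cells and -5.16 with other lineages removed, where Dok3 turned to -3.88 and Fbxo5 to 3.30.

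Cycling shares in mice 27, 29, 31, 33 and 34 were 37.5%, 10.7%, 15.5%, 22.02% and 38.2% after thinning, which lowers detection by construction. With other lineages removed, by a fixed limit that cells with more UMIs reach more easily, they were 55.95% in mouse 27 and 15.2%, 31.3%, 38.3% and 44.6% in mice 29, 31, 33 and 34. At 5000 UMIs the share was 58.95% in mouse 27. The heavy contig difference turned to -5.16 points in matched cells.

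Signs changed for uncalled genes. In matched cells these were Ccnd3 (0.19), Cdkn1a (-0.10), Ighe (0.015) and Myc (-0.18). Myc also changed without the block (-0.048), with 5 class genes (-0.071) and without mouse 33 (-0.017), its lowest value with a nodule left out, the highest being 0.19 without mouse 29. Cdkn1b ran from -0.19 to 0.044 with a nodule left out (positive without mouse 33) and was 0.028 with the most frequent heavy chain. Cdkn2a ran from -0.075 (without mouse 29) to 0.25 and was -0.066 thinned and -0.057 with other lineages removed. Cdkn2c was -0.010 with the most frequent heavy chain, and Eif3e 0.032 without the filter. List medians changed sign for the dark zone (0.089) and glycolysis (-0.075) in matched cells and for ribosomal proteins (0.036) and the BCL2 family (0.015) without the filter, where the median of all genes was 0.053.

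The smallest classes held 67 cycling cells in mouse 29 and 39 in mouse 30, and the B clone class with the fewest UMIs was the non-cycling class of mouse 27 (896426).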

Other observations

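Cells without a heavy chain contig were cycling in 37.1% of 140 cells in mouse 34 (exact 95% interval 29.1 to 45.7) and 25.9% of 514 cells in mouse 31 (22.1 to 29.9), below the share with the most frequent heavy chain in either nodule (60.3% and 35.3%). These shares were not matched on UMIs. A heavy chain contig was found in 12.65 and 7.43 percentage points more of the cycling cells of mice 34 and 31. In matched cells these differences were 0.61 and -2.01 points. In mouse 27 they were cycling in 58.8% of 619 cells (54.8 to 62.7), beside 57.1% with its most frequent and 51.2% with its next heavy chain. The clone of mouse 33 held contigs of several isotypes, and 43.0% of 114 cells with an IGHE contig (33.8 to 52.6) and 26.5% of 34 cells with an IGHA contig (12.9 to 44.4) were cycling, with overlapping intervals.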
